A study of Rattus norvegicus with 20 samples.

Results

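High salt was compared with low salt in Dahl salt-sensitive (SS) rats labelled as Ccl2 null. RNA came from small vessels dissected from the kidney. The comparison took 10 of the 20 libraries of the study and 16153 of the 16672 genes in its table, those that reached 10 normalized counts in 5 or more libraries. The groups were SS Ccl2-/- males kept on 4.0% NaCl for 2 weeks (5 rats) and SS Ccl2-/- males kept on 0.3% NaCl for the same time (5 rats). For comparison, 5 SS males on 4.0% NaCl and 5 SS males on 0.3% NaCl were used. All 20 rats thus share the SS background, and both null groups carry the Ccl2 allele. How that allele was made and how old the rats were is not given in the sources used here. Each library is labelled as a separate rat.

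Ccl2 is a chemokine that draws monocytes into tissue through the receptor Ccr2. SS rats become hypertensive on a high-salt diet and develop kidney injury with leukocyte infiltration. Small kidney arteries constrict when pressure rises, a myogenic response that shields the glomerulus, and the title of the study names this tone and the role of Ccl2 in it. Kidney vessels lie against the tubules, and proximal tubule cells draw most of their energy from burning fatty acids under control of the nuclear receptor PPAR-alpha.

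Ccl2 itself was read in every library labelled null. Its normalized counts were 79.4, 99.5, 107, 128 and 77.5 in null rats 1 to 5 on 4.0% NaCl, against 218, 161, 169, 124 and 194 in null rats 1 to 5 on 0.3% NaCl. The groups overlapped, since high-salt rat 4 lay above low-salt rat 4. The log2 change with salt was -0.81 ± 0.22, and the adjusted p of limma over all genes was 0.0338. An exact permutation test, two-sided, over the 252 divisions of the 10 rats gave p = 0.0159, where 0.00794 is the smallest it can give. The limma call was lost without any rat other than high-salt rat 4 and low-salt rat 4 (adjusted p up to 0.0862). Ccr2 had 173 ± 29.0 normalized counts in null rats on 4.0% NaCl and 154 ± 32.6 on 0.3% NaCl (SD, n = 5 each), and did not pass (0.17 ± 0.18, adjusted p = 0.604). On 0.3% NaCl Ccl2 averaged 173 ± 35.4 normalized counts in null rats and 187 ± 28.5 in SS rats (SD, n = 5 each). On 4.0% NaCl it averaged 98.3 ± 21.0 in null rats and 285 ± 113 in SS rats. Since a null allele may leave its transcript in place, the level of Ccl2 does not check the labels, and every direction given here rests on them.

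Depth was 22.0 to 39.1 M reads in the null high-salt libraries (28.5 ± 6.58, SD, n = 5) and 26.3 to 47.9 M in the null low-salt libraries (34.4 ± 8.04, SD, n = 5). Mitochondrially encoded transcripts took 13.3% ± 2.83 of reads in null high-salt rats (9.77% to 16.5%) and 20.5% ± 5.76 in null low-salt rats (14.1% to 29.5%). On the first 2 principal components of the 10 null libraries, which held 28.37% and 16.01% of the variance, low-salt rat 4 stood apart from the other 4 rats of its group. The defining markers of vessels were read in all 10 null rats, with Acta2 of smooth muscle at 8148 to 14971 normalized counts, Myh11 of smooth muscle at 10892 to 18064 and Pecam1 of endothelium at 9345 to 13505. Tubule markers were read in all 10 as well, with Slc34a1 of the proximal tubule at 69718 to 97935 and Umod of the thick limb at 82324 to 194488, so the material was not vessel alone. In such bulk material, fewer cells of a type and less RNA per cell cannot be told apart.

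With 4.0% NaCl, 891 of the 16153 genes passed limma's test at an adjusted p below 0.05 in null rats (5.52%), 495 of them higher (3.06%) and 396 lower (2.45%). Most of the changes were small. The median log2 change was 0.50 among the higher genes and -0.54 among the lower ones, and 128 of the 891 changed at least 2-fold. In 750 of the 891 the 5 rats of one diet lay wholly above or below the 5 rats of the other, as did 1741 of all 16153 genes (10.8%, with 5.6% higher and 5.18% lower). The count was 600, 531, 517, 485 and 419 when null high-salt rats 1 to 5 were left out in turn. It was 680, 638, 540, 564 and 469 when null low-salt rats 1 to 5 were left out, and 1609 without SS high-salt rat 1, which shares the estimate of the spread. In all 10 fits that left out a null rat 308 of the genes passed, 177 higher and 131 lower. Each gene said below to have risen or fallen is among those 308, unless the rats whose removal ended its call are named.

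**Figure D1:**
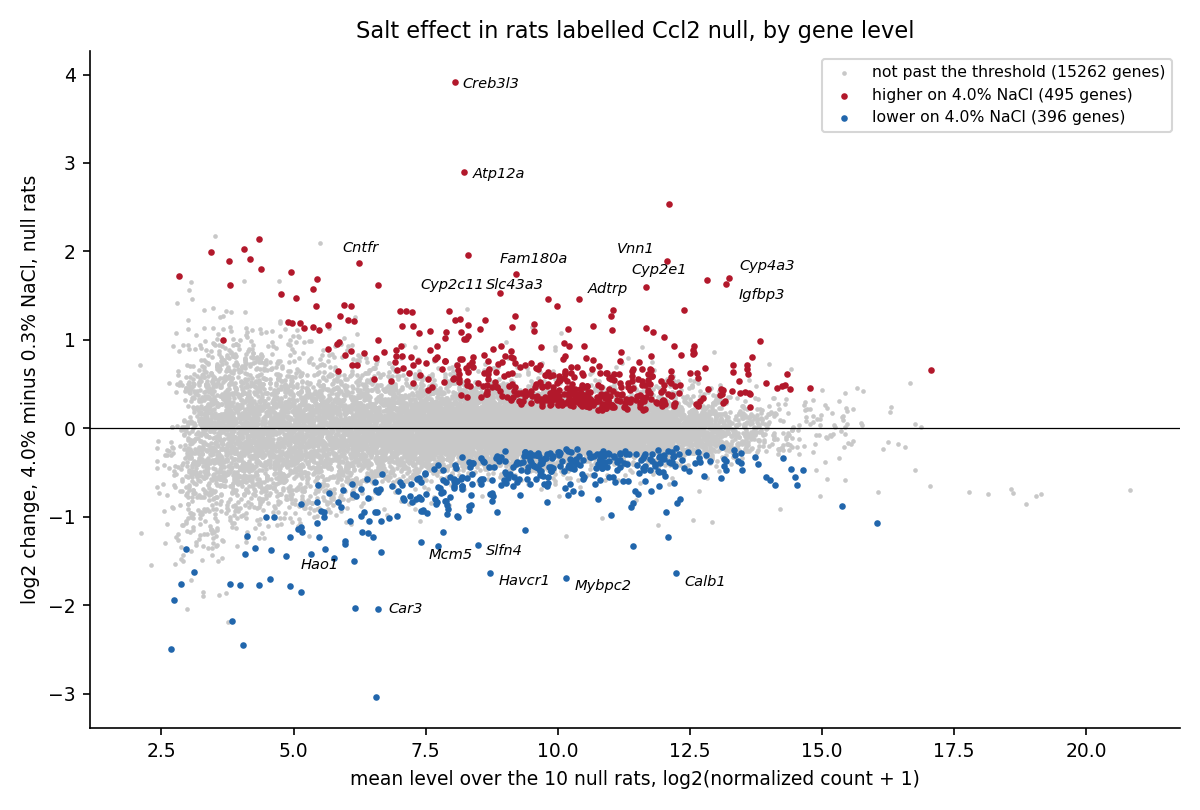
Log2 change with 4.0% NaCl in null rats (y axis) against the mean level over the 10 null rats as log2(normalized count + 1) (x axis), 1 point per gene tested. The 495 genes that passed upward are red and the 396 that passed downward are blue. Creb3l3 and Atp12a lie highest among the named points, and Calb1, Mybpc2 and Car3 lie low.

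Genes of fatty acid burning were the clearest group to rise. Of 21 tested genes of mitochondrial fatty acid oxidation 11 rose and 0 fell, against 3.06% higher among all genes, and the median log2 change of the list was 0.42, against -0.00 over all genes. Of 35 tested PPAR-alpha target and peroxisomal genes 9 rose and 1 fell, with a median of 0.36. Leaving out single null rats gave 7 (without high-salt rat 1 or high-salt rat 3 or low-salt rat 5) to 9 risen fatty acid genes and 7 (without high-salt rat 1 or high-salt rat 2 or low-salt rat 2) to 9 risen PPAR genes. The fatty acid list took 0.565% of reads outside the mitochondrial genome in null high-salt rats (0.510% to 0.616%), against 0.412% in null low-salt rats (0.390% to 0.431%), so the 2 groups did not overlap. They did not overlap as shares of all reads either, at 0.490% (0.455% to 0.528%) in null high-salt rats and 0.328% (0.286% to 0.357%) in null low-salt rats.

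Vnn1, a pantetheinase and a PPAR-alpha target in mouse liver, had 8093, 6989, 7448, 5886 and 5455 normalized counts in null rats on 4.0% NaCl, against 1891, 1728, 1637, 1914 and 1888 on 0.3% NaCl (1.89 ± 0.30, adjusted p = 0.00143). Its high-salt rats all exceeded the low-salt rats, and the low-salt rats lay close together. Creb3l3, a membrane-bound transcription factor that drives fasting genes in mouse liver, had 945, 803, 306, 264 and 165, against 18.3, 9.34, 27.1, 38.1 and 57.8 on 0.3% NaCl. The fold was the largest of any named gene past the test (3.92 ± 0.97, adjusted p = 0.0224), with rats 1 and 2 of the high-salt group well above rats 3 to 5. Its call was lost without high-salt rat 1, high-salt rat 2 or low-salt rat 2 (adjusted p up to 0.0557).

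The enzymes that pass acyl chains through oxidation rose by less. Eci1, an isomerase that readies unsaturated chains, averaged 7686 ± 1069 normalized counts in null rats on 4.0% NaCl and 3021 ± 219 on 0.3% NaCl (SD, n = 5 each; 1.34 ± 0.26, adjusted p = 0.00552). Decr1, the reductase of the same branch, rose by 1.03 ± 0.18 and Eci2 by 0.67 ± 0.15. The peroxisomal enzymes Acaa1b and Ehhadh rose by 1.27 ± 0.28 and 1.13 ± 0.24, and the fatty acid transporter and acyl-CoA synthetase Slc27a2 by 0.99 ± 0.14 (adjusted p = 5.84e-04). Acsl1, which activates fatty acids, rose by 0.84 ± 0.18, Acaa2, the last thiolase of the mitochondrial cycle, by 0.81 ± 0.19, Cpt1b, a carnitine transferase, by 0.73 ± 0.17, and Etfdh, which hands electrons to the respiratory chain, by 0.52 ± 0.11. The acyl-CoA dehydrogenases Acadl, Acadm and Acadvl and the trifunctional subunit Hadha rose by 0.31 to 0.49. In all 4 the high-salt rats lay above the low-salt rats, but Acadl lost its call without any rat other than high-salt rat 5, low-salt rat 1 and low-salt rat 3 (adjusted p up to 0.0675), Acadm without every one of the 10 rats in turn (adjusted p up to 0.0962), Acadvl without every one of the 10 rats in turn (adjusted p up to 0.0966) and Hadha without high-salt rat 1, high-salt rat 3 or low-salt rat 5 (adjusted p up to 0.0587).

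The omega-hydroxylases Cyp4a3 and Cyp4a1, which make 20-HETE and dicarboxylic acids from fatty acids, rose as well. Cyp4a3 had 18180.0, 14822, 14374, 14817 and 11567 normalized counts in null rats on 4.0% NaCl, against 5847, 4974, 4806, 3147 and 4248 on 0.3% NaCl (1.69 ± 0.26, adjusted p = 0.00113). Every high-salt rat had more than every low-salt rat. Cyp4a1 averaged 4888 ± 928 and 1602 ± 256 on the same diets (1.60 ± 0.25). Reads of the Cyp4a family are uncertain between members. Oxct1, which burns ketone bodies rather than making them, fell: it averaged 18445 ± 924 normalized counts on 4.0% NaCl and 28789 ± 1987 on 0.3% NaCl (-0.64 ± 0.11, adjusted p = 0.00219). Fabp3, a fatty acid binding protein, was the 1 PPAR list member past the test downward (-0.44 ± 0.12), a call lost without any rat other than high-salt rat 3 and low-salt rat 4 (adjusted p up to 0.0906). Pex11a, a peroxisome division protein, passed upward (0.52 ± 0.15), a call lost without any rat other than high-salt rat 5 (adjusted p up to 0.12). Cpt1a differed by 0.46 ± 0.18 (adjusted p = 0.124) and Ppara itself by 0.06 ± 0.22 (adjusted p = 0.905), and neither passed.

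In SS rats these genes split by rat. Vnn1 had 1799, 2415, 8378, 8206 and 4485 normalized counts in SS rats 1 to 5 on 4.0% NaCl, against 1238, 1795, 2343, 1378 and 1737 on 0.3% NaCl. Cyp4a3 had 3998, 6359.6, 13946, 16811 and 10333 in the same SS high-salt rats, against 3937, 5318, 5419, 4884 and 5406 in the SS low-salt rats. High-salt rats 1 and 2 lay below rats 3 to 5 for both genes. The difference between the salt effects in null and SS rats was 0.54 ± 0.42 for Vnn1 (adjusted p = 0.532) and 0.82 ± 0.37 for Cyp4a3 (adjusted p = 0.243), and neither passed the test.

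**Figure D2:**
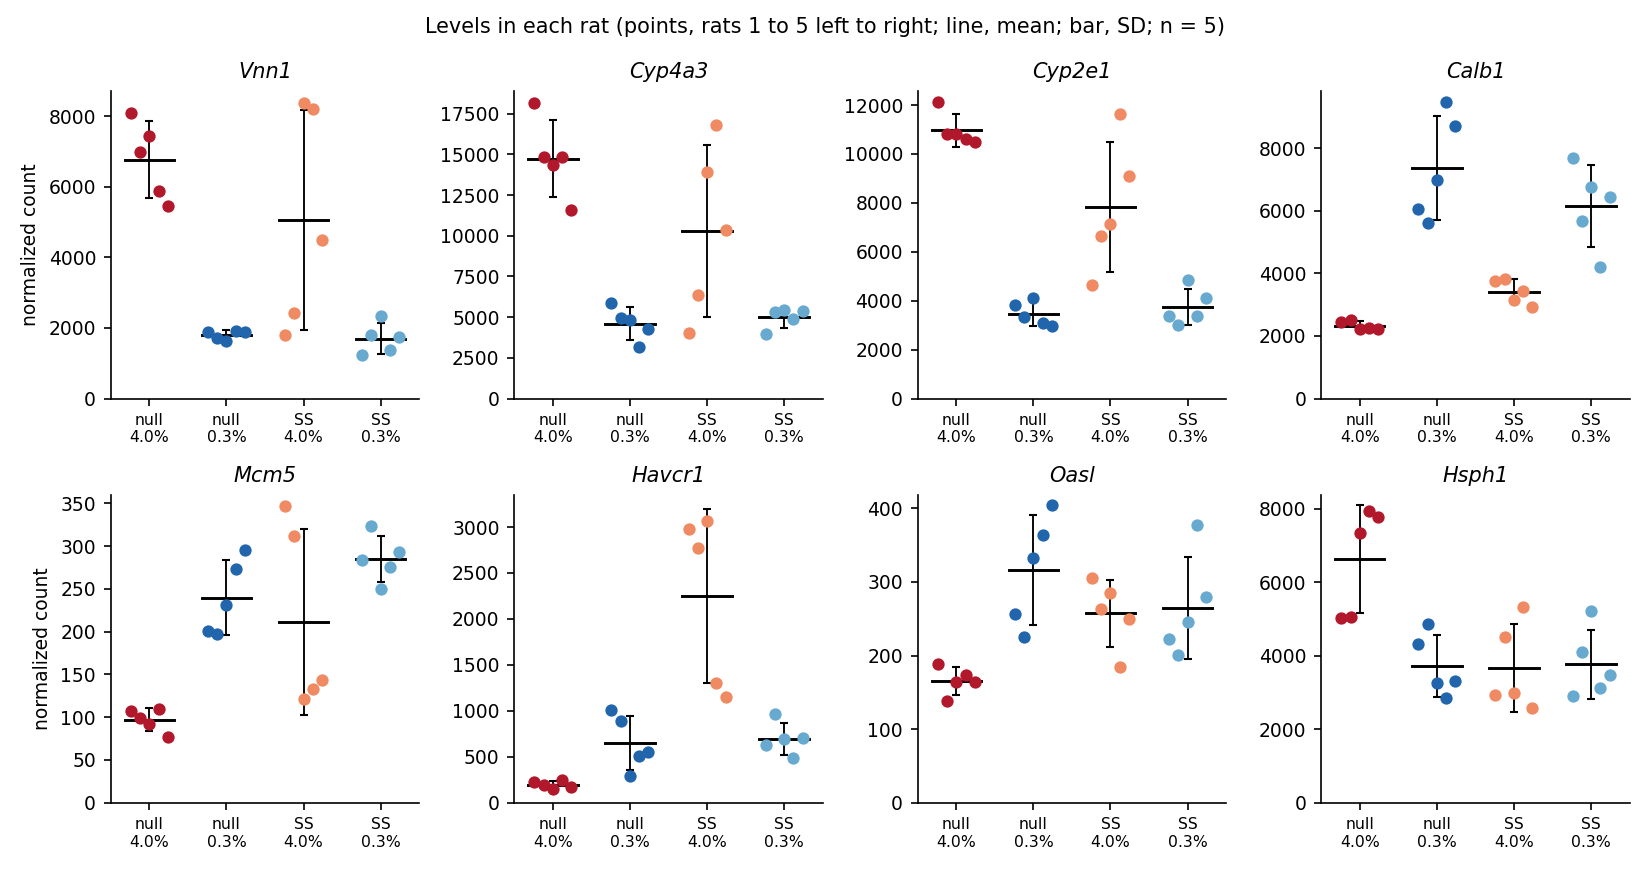
Normalized counts of 8 genes in each rat (points, rats 1 to 5 from left to right within a group), with the mean (line) and SD (bar) of 5 rats, for null rats on 4.0% and 0.3% NaCl and SS rats on 4.0% and 0.3% NaCl. Vnn1, Cyp4a3 and Cyp2e1 were higher and Calb1, Mcm5, Havcr1 and Oasl lower in all 5 null high-salt rats than in any null low-salt rat, as was Hsph1 upward.

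Cytochrome P450 genes outside the Cyp4 family rose in 6 of 28 cases and fell in 2, against 3.06% higher and 2.45% lower among all genes. Leaving out single null rats gave 3 (without low-salt rat 4 or low-salt rat 5) to 6 risen genes. The list took 0.312% of reads outside the mitochondrial genome in null high-salt rats (0.295% to 0.327%), against 0.221% in null low-salt rats (0.197% to 0.243%). Cyp2e1, an ethanol and fatty acid oxidase that ketosis raises in rat liver, had 12136, 10797, 10800.5, 10607 and 10497 normalized counts in null rats on 4.0% NaCl, against 3804, 3340.3, 4094, 3074 and 2969 on 0.3% NaCl (1.67 ± 0.17, adjusted p = 6.06e-06). The 5 high-salt rats lay close together and far above the low-salt rats. Cyp2d4 rose by 0.93 ± 0.13, and Cyp2r1, a vitamin D 25-hydroxylase, by 0.66 ± 0.15, with high-salt rat 2 inside the low-salt range. Cyp2c11, the male-specific steroid hydroxylase of rat liver, had 757, 728, 478, 719 and 771, against 108 to 465 on 0.3% NaCl (1.53 ± 0.38). Its groups did not overlap, but high-salt rat 3 lay near low-salt rat 3, and the call was lost without high-salt rat 5, low-salt rat 4 or low-salt rat 5 (adjusted p up to 0.0601). Reads of the Cyp2c and Cyp2d families are uncertain between members. Cyp2d2 (0.47 ± 0.12) passed upward and lost its call without any rat other than high-salt rat 5, low-salt rat 1, low-salt rat 2 and low-salt rat 3 (adjusted p up to 0.0744), and Cyp2d5 (0.65 ± 0.18) without any rat other than high-salt rat 5, low-salt rat 2 and low-salt rat 3 (adjusted p up to 0.086). Cyp2s1 (-0.63 ± 0.17) and Cyp3a9 (-1.94 ± 0.53) passed downward, and lost the call without any rat other than low-salt rat 2 and low-salt rat 4 (adjusted p up to 0.0965) for Cyp2s1 and without any rat other than high-salt rat 2, high-salt rat 5 and low-salt rat 3 (adjusted p up to 0.092) for Cyp3a9.

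Some transporters of the proximal tubule brush border rose. Of 35 tested proximal tubule markers 5 rose and 1 fell, against 3.06% higher and 2.45% lower among all genes. Leaving out single null rats gave 3 to 5 risen markers, with 5 only without high-salt rat 5. Not all the genes named below belong to this list. The list as a whole took 2.76% of reads outside the mitochondrial genome in null high-salt rats (2.50% to 2.98%) and 2.77% in null low-salt rats (2.27% to 3.04%), which overlapped. Of all reads it took 2.39% in null high-salt rats and 2.20% in null low-salt rats. Slc9a3, the sodium-proton exchanger NHE3, had 2255, 2759, 2999.7, 3111 and 2719 normalized counts in null rats on 4.0% NaCl, against 1759, 1769, 2328, 1360.3 and 1924 on 0.3% NaCl (0.61 ± 0.13, adjusted p = 0.0114). Only low-salt rat 3 reached into the high-salt range. Slc15a1, the peptide transporter PEPT1, had 360.4, 329, 375, 314 and 369, against 162, 112, 166, 125 and 133 (1.33 ± 0.20, adjusted p = 0.0011), with no overlap. Slc5a1, the glucose transporter SGLT1, rose by 0.81 ± 0.16 and Slc22a25, an organic anion transporter, by 0.56 ± 0.13, the call of Slc22a25 being lost without high-salt rat 4 (adjusted p up to 0.05). The glutathione transferase Gsta2 rose by 0.62 ± 0.12 and G6pc1, the last enzyme of glucose release, by 0.67 ± 0.16. The lactate transporter Slc5a12 passed upward (0.63 ± 0.18) and lost its call without any rat other than high-salt rat 5 and low-salt rat 1 (adjusted p up to 0.0947), and the neutral amino acid transporter Slc6a19 (0.43 ± 0.13) without any rat other than high-salt rat 5 (adjusted p up to 0.114). The phosphate transporter Slc34a1 (0.25 ± 0.12, adjusted p = 0.234) and the endocytic receptors Lrp2 (0.23 ± 0.12, adjusted p = 0.27) and Cubn (0.09 ± 0.14, adjusted p = 0.733) did not pass.

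Gatm, the first enzyme of creatine synthesis, had 48813, 25422, 40404, 70686 and 38835 normalized counts in null rats on 4.0% NaCl, against 94917, 94064, 83376, 77550.0 and 96736 on 0.3% NaCl (-1.07 ± 0.24, adjusted p = 0.0129). Every high-salt rat lay below every low-salt rat, though high-salt rat 4 came near. Hao1, glycolate oxidase, had 43.0, 16.7, 38.8, 52.8 and 37.7, against 117, 99.0, 90.2, 110.1 and 95.8 on 0.3% NaCl (-1.50 ± 0.23, adjusted p = 0.0011). Of 41 tested genes of amino acid breakdown, 3 rose and 3 fell, against 3.06% higher and 2.45% lower among all genes. Among the others past the test were the kynurenine enzymes Kynu (0.54 ± 0.13) and Kmo (0.55 ± 0.13) and the glycine transferase Glyat (0.45 ± 0.11), all upward. Prodh, which starts proline breakdown, rose by 0.97 ± 0.13 (adjusted p = 4.69e-04).

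Genes that copy DNA and divide cells were lower on high salt. Of 36 tested DNA replication genes 12 fell and 0 rose, against 2.45% lower among all genes, and the median log2 change was -0.41. Of 39 tested mitosis genes 12 fell and 0 rose, with a median of -0.70. The counts of fallen genes were 6 (without high-salt rat 2) to 10 and 5 (without high-salt rat 3 or high-salt rat 5) to 13 when single null rats were left out. After scaling to the library total 6 of each list fell, where 113 of all 16153 genes fell, and 1 mitosis gene rose. The replication list took 0.0530% of reads outside the mitochondrial genome in null high-salt rats (0.0495% to 0.0576%), against 0.0667% in null low-salt rats (0.0585% to 0.0843%), without overlap. As shares of all reads the groups overlapped, at 0.0460% (0.0421% to 0.0513%) in null high-salt rats and 0.0532% (0.0463% to 0.0724%) in null low-salt rats. For the mitosis list the groups overlapped on both scales. Of reads outside the mitochondrial genome it took 0.0221% (0.0189% to 0.0259%) in null high-salt rats and 0.0283% (0.0255% to 0.0298%) in null low-salt rats.

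Mcm5, a subunit of the helicase that opens the double strand, had 107, 99.5, 92.1, 109.5 and 76.4 normalized counts in null rats on 4.0% NaCl, against 200.5, 197, 231, 273 and 296 on 0.3% NaCl (-1.29 ± 0.23, adjusted p = 0.00361). The highest high-salt rat had fewer than the lowest low-salt rat. Its partners Mcm3 and Mcm2 fell by 0.86 ± 0.18 and 0.61 ± 0.10 on the log2 scale, and Cdt1, which loads the helicase, had 79.4, 76.3, 61.6, 35.6 and 68.1, against 101, 119, 114, 141 and 131 (-0.95 ± 0.22). E2f1, the factor that switches on this program, averaged 31.5 ± 3.88 on 4.0% NaCl and 62.0 ± 10.2 on 0.3% NaCl (-0.95 ± 0.20), and the thymidine kinase Tk1 226 ± 33.4 and 413 ± 45.9 (-0.87 ± 0.17). Pcna, the sliding clamp, did not pass (-0.22 ± 0.13, adjusted p = 0.343).

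Among mitosis genes, Ect2, which builds the cleavage furrow, had 76.1, 53.0, 44.3, 69.9 and 31.4 normalized counts in null rats on 4.0% NaCl, against 135, 125, 98.0, 141 and 126 on 0.3% NaCl (-1.23 ± 0.22, adjusted p = 0.0034). The ranges did not overlap, and high-salt rat 5 was the lowest. The cyclin Ccnb1 had 81.6, 74.4, 48.5, 60.7 and 59.7, against 144, 134, 119.9, 119.6 and 106 (-0.94 ± 0.18, adjusted p = 0.00552), again with no overlap. Kif4a, a chromosome motor, fell (-1.40 ± 0.30) with low-salt rat 3 inside the high-salt range, and the phosphatase Cdkn3 (-1.46 ± 0.35), the spindle protein Prc1 (-0.86 ± 0.19) and the kinetochore protein Spc24 (-1.30 ± 0.31) fell without overlap. The kinase Cdk1 (-1.02 ± 0.25) lost its call without high-salt rat 3 or high-salt rat 5 (adjusted p up to 0.0585). The proliferation marker Mki67 (-0.63 ± 0.19, adjusted p = 0.0554) and the topoisomerase Top2a (-0.87 ± 0.29, adjusted p = 0.0787) did not pass. In SS rats 2 replication genes and 12 mitosis genes fell with salt, against 7.73% lower among all genes there, and of the genes of both lists only Cdt1 had a salt effect that differed between genotypes (-1.18 ± 0.31, adjusted p = 0.0401).

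Promoters of the replication genes were read for the site that E2f1 and its relatives bind. The windows are RefSeq promoters of build GRCr8, from 250 bases before to 50 after the start, and 28 of the 36 genes had one. The letters searched on both strands were TTTCCCGC, TTTCGCGC, TTTGGCGC and TTTGCCGC, with overlapping matches kept. Matches stood in 12 of the 28 promoters (42.9%), against 716 of 33469 promoters in the table (2.14%). Among the 10 fallen genes with a promoter 5 held one. The cell cycle homology element (TTTGAA or TTCGAA, either strand) stood in 23 of 33 mitosis promoters (69.7%), against 19.7% of all promoters, and in 9 of the 10 fallen genes with a promoter. The helicase genes Mcm2 (chr4:122918045-122918344, minus strand), Mcm3 (chr9:30733697-30733996, minus strand) and Mcm5 (chr19:13488563-13488862, plus strand) are shown 5′ to 3′ with E2F matches in capitals. In Mcm2, and in the first capital stretch of Mcm5, a pair of matches on opposite strands overlaps. A match of letters is a description of the sequence and shows no binding.
Mcm2: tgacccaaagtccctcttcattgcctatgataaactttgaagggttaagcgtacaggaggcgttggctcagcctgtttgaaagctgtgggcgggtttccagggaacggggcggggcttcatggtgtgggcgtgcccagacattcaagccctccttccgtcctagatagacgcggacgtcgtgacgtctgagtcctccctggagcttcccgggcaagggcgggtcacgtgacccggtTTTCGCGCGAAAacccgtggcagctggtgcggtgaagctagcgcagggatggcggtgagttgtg
Mcm3: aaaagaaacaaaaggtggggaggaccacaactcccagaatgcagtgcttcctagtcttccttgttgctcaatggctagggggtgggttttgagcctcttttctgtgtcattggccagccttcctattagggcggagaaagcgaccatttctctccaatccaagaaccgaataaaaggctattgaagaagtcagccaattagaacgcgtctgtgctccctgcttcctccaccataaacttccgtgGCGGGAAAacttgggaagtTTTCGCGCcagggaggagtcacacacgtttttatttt
Mcm5: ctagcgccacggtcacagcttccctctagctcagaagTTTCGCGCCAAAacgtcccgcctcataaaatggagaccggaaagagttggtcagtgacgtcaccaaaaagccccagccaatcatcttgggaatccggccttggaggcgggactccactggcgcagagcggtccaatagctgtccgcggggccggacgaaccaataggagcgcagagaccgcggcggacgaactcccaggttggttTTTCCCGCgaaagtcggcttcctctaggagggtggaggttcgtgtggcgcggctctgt

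**Figure D3:**
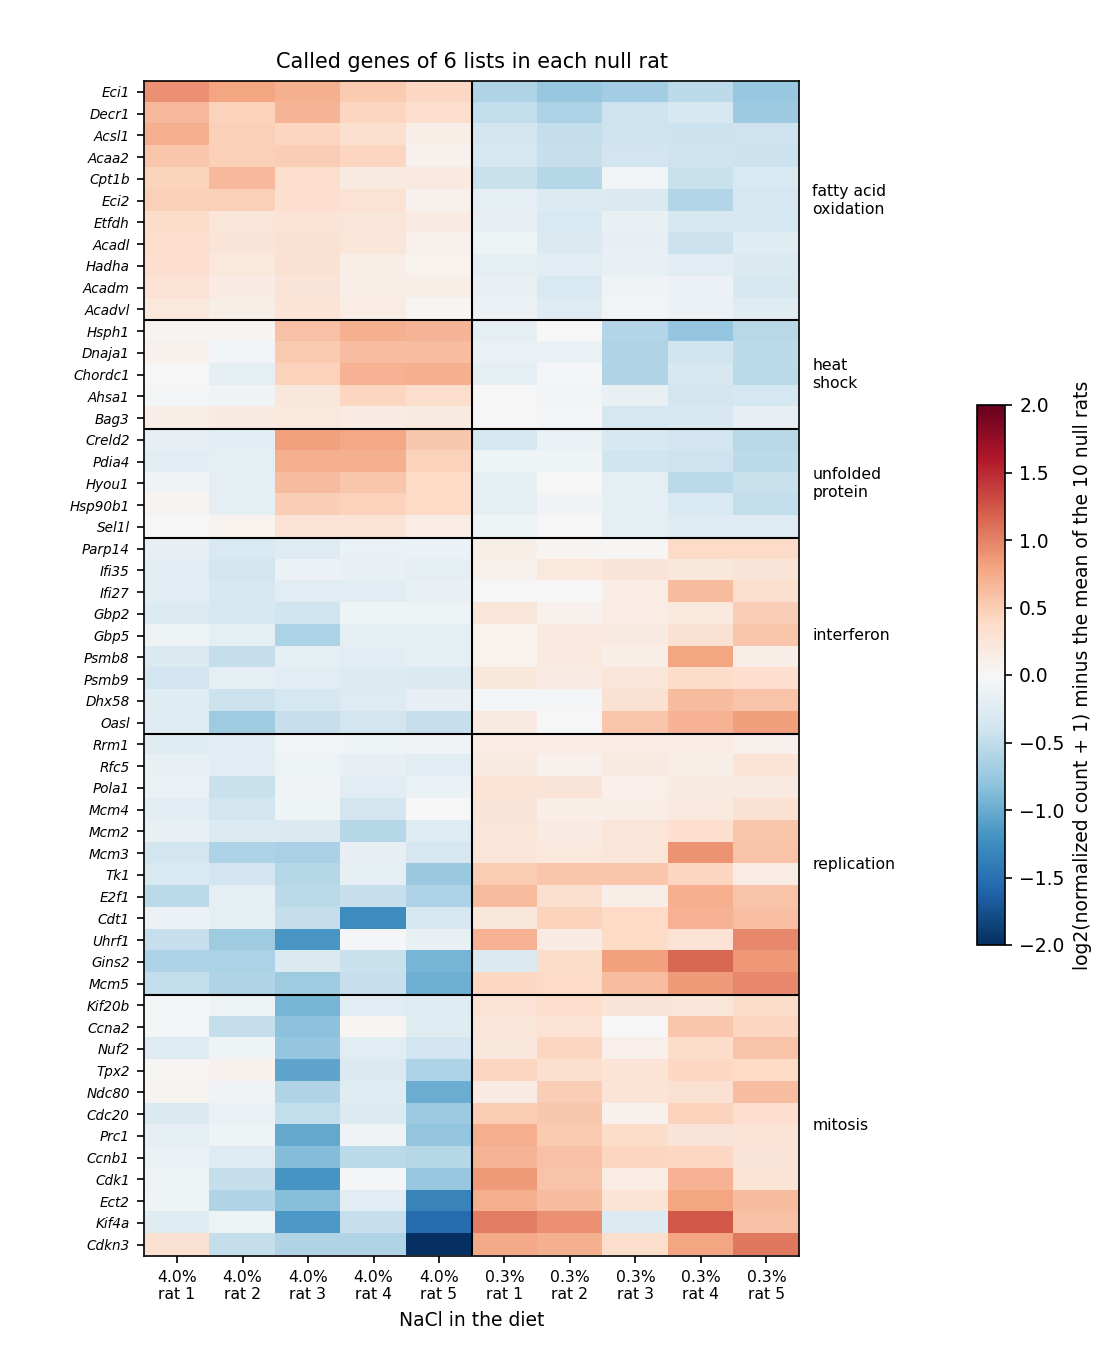
Genes past the test in 6 lists (rows) in each of the 10 null rats (columns, 4.0% NaCl left of the black line and 0.3% NaCl right of it), coloured by log2(normalized count + 1) minus the mean of the 10 rats. Fatty acid genes are above that mean in all 5 high-salt rats, heat shock and unfolded protein genes other than Bag3 are highest in high-salt rats 3 to 5, and interferon genes are below the mean in all 5.

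Some markers of injured tubule cells fell in null rats. Of 27 tested injury genes 6 fell and 0 rose, against 2.45% lower among all genes. The list took 0.356% of reads outside the mitochondrial genome in null high-salt rats (0.332% to 0.388%), against 0.470% in null low-salt rats (0.430% to 0.512%), without overlap. As shares of all reads the groups overlapped, at 0.309% (0.291% to 0.346%) in null high-salt rats and 0.374% (0.326% to 0.408%) in null low-salt rats. The number of fallen genes was 2 (without high-salt rat 3 or high-salt rat 5 or low-salt rat 5) to 5 without single null rats, and scaling to the library total gave 3 fallen and 1 risen. Havcr1, known as KIM-1 and shed by damaged proximal tubules, had 224, 191, 145, 245 and 168 normalized counts in null rats on 4.0% NaCl, against 1010.1, 891, 294, 506 and 549 on 0.3% NaCl (-1.63 ± 0.30, adjusted p = 0.00422). Every high-salt rat lay below every low-salt rat, with low-salt rats 1 and 2 highest. Krt7, a keratin of simple epithelium, had 3702, 3535, 4133, 3862 and 3372, against 6360.1, 5809, 7658, 6523 and 6177 on 0.3% NaCl (-0.80 ± 0.13, adjusted p = 0.00236). Its groups were far apart relative to their spread.

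The calls of the other 4 fallen injury genes were lost without some of the rats. Lcn2, the iron-binding protein NGAL, averaged 309.7 ± 38.1 on 4.0% NaCl and 553 ± 123 on 0.3% NaCl (-0.82 ± 0.23), and its call was lost without any rat other than low-salt rat 3 and low-salt rat 4 (adjusted p up to 0.0851). The hyaluronan receptor Cd44 (-0.65 ± 0.19) lost its call without any rat other than low-salt rat 3 (adjusted p up to 0.0978), the transcription factor Sox4 (-0.80 ± 0.20) without high-salt rat 3, high-salt rat 5, low-salt rat 4 or low-salt rat 5 (adjusted p up to 0.0668) and the calcium binder S100a11 (-0.55 ± 0.16) without any rat other than low-salt rat 4 (adjusted p up to 0.103). Spp1, osteopontin, did not pass (-0.77 ± 0.24, adjusted p = 0.0616), nor did Clu (-0.09 ± 0.17, adjusted p = 0.805). Of the same 27 genes, 9 rose and 2 fell with salt in SS rats, where 9.52% of all genes rose. For 7 of the 27 the salt effect was lower in null rats than in SS rats by the test of the difference, as for 1.76% of all genes. Havcr1 had 2975, 2771, 3068, 1304 and 1145 normalized counts in SS rats on 4.0% NaCl, against 626, 964, 689, 489.5 and 707 on 0.3% NaCl. All 5 SS high-salt rats lay above all 5 SS low-salt rats, and the difference of salt effects was -3.24 ± 0.42 (adjusted p = 9.86e-04). It was -1.57 ± 0.32 for Lcn2 (adjusted p = 0.0154), -1.52 ± 0.34 for Spp1 (adjusted p = 0.0215) and -1.24 ± 0.27 for Cd44 (adjusted p = 0.0178).

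The distal nephron gave the smallest p of all. Calb1, the calcium-binding protein of the distal convoluted and connecting tubule, had 2435, 2515, 2230.2, 2244 and 2213 normalized counts in null rats on 4.0% NaCl, against 6063, 5614, 6981, 9479.7 and 8706 on 0.3% NaCl. The high-salt rats lay within a narrow band far below the low-salt rats, and the log2 change was -1.63 ± 0.14 (adjusted p = 9.65e-07). Slc8a1, the sodium-calcium exchanger that extrudes calcium there, had 1976, 1727, 1928, 1962 and 2183, against 3337, 3672, 2781, 3910.4 and 3927 (-0.84 ± 0.15, adjusted p = 0.00309), and the potassium channel Kcnj10 fell by 0.47 ± 0.11. These were 3 of 14 tested distal tubule genes, against 2.45% lower among all genes, and each passed in every fit that left out a null rat. The list took 0.427% of reads outside the mitochondrial genome in null high-salt rats (0.397% to 0.455%), against 0.490% in null low-salt rats (0.456% to 0.550%). Of all reads it took 0.370% in null high-salt rats (0.338% to 0.396%) and 0.390% in null low-salt rats (0.352% to 0.472%), which overlapped. The thiazide-sensitive transporter Slc12a3 did not pass (-0.24 ± 0.14, adjusted p = 0.328).

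In the thick limb 2 of 15 tested genes fell, the paired claudins of magnesium reabsorption, against 2.45% lower among all genes. Cldn19 averaged 1039 ± 83.4 and 1734 ± 245 normalized counts on 4.0% and 0.3% NaCl (-0.73 ± 0.19), and Cldn16 1019.5 ± 82.4 and 1367 ± 183 (-0.42 ± 0.12). The call of Cldn19 was lost without high-salt rat 1, high-salt rat 5, low-salt rat 3 or low-salt rat 5 (adjusted p up to 0.0667) and that of Cldn16 without any rat other than low-salt rat 4 (adjusted p up to 0.113). The thick limb list took 0.794% of reads outside the mitochondrial genome in null high-salt rats (0.750% to 0.835%) and 0.980% in null low-salt rats (0.726% to 1.35%), which overlapped. Umod, the main urinary protein, did not pass (-0.47 ± 0.20, adjusted p = 0.16), nor did the cotransporter Slc12a1 (-0.01 ± 0.15, adjusted p = 0.971). Hsd11b2, which shields the mineralocorticoid receptor of the collecting duct from glucocorticoids, averaged 13355 ± 1059.7 on 4.0% NaCl and 19955 ± 1601 on 0.3% NaCl (-0.58 ± 0.13, adjusted p = 0.0124), without overlap. The water channel Aqp2 did not pass (0.14 ± 0.18, adjusted p = 0.667).

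Some interferon response genes fell in null rats on high salt. Of 41 tested, 9 fell and 0 rose, against 2.45% lower among all genes, and leaving out single null rats gave 6 (without low-salt rat 5) to 11. Scaling to the library total gave 1 fallen interferon gene, where 113 of all 16153 genes fell. The list took 0.161% of reads outside the mitochondrial genome in null high-salt rats (0.144% to 0.177%), against 0.194% in null low-salt rats (0.169% to 0.228%). The groups overlapped, as they did in shares of all reads. Oasl, an antiviral protein related to the oligoadenylate synthetases, had 188, 138, 163, 174 and 163 normalized counts in null rats on 4.0% NaCl, against 256, 225, 332, 364 and 405 on 0.3% NaCl (-0.91 ± 0.18, adjusted p = 0.0058). No high-salt rat reached the lowest low-salt rat. Psmb9, a subunit of the immunoproteasome, had 635, 724, 711, 686 and 681, against 967, 931, 984, 1064 and 1048 (-0.54 ± 0.10, adjusted p = 0.00386). Smaller falls were those of Dhx58 (-0.58 ± 0.13), a sensor of viral RNA, Gbp2 (-0.48 ± 0.11), a guanylate-binding protein, Ifi35 (-0.41 ± 0.08) and Parp14 (-0.39 ± 0.09), an ADP-ribosyltransferase. The remaining 3 were Gbp5 (-0.52 ± 0.13), which lost its call without high-salt rat 3 or low-salt rat 5 (adjusted p up to 0.059), Ifi27 (-0.45 ± 0.11), without high-salt rat 2, high-salt rat 4, low-salt rat 4 or low-salt rat 5 (adjusted p up to 0.0639), and Psmb8 (-0.53 ± 0.15), without any rat other than low-salt rat 1 (adjusted p up to 0.115). Irf7 (-0.47 ± 0.17, adjusted p = 0.0889) and Mx1 (-0.59 ± 0.18, adjusted p = 0.0552) did not pass. The element GAAANNGAA stood in 22 of 33 promoters of the list (66.7%), against 9.71% of all promoters, and in 5 of the 8 fallen genes with a promoter.

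Few leukocyte markers passed in null rats. None of 21 tested macrophage markers passed limma's adjusted test, with 4 at an unadjusted p below 0.05, 0 by edgeR and 2 by DESeq2. Of all 16153 genes 5.52% passed limma's test in null rats. At an unadjusted p below 0.05 there were 3735, with 956 past edgeR's test and 1656 past that of DESeq2. Lists of this size would hold few calls at these shares. Of the T and NK cell markers 1 of 26 passed, the NK cell receptor Ncr1 (1.21 ± 0.31), a call lost without high-salt rat 2, high-salt rat 3, high-salt rat 5, low-salt rat 1 or low-salt rat 5 (adjusted p up to 0.0646). The macrophage list took 0.175% of reads outside the mitochondrial genome in null high-salt rats (0.152% to 0.188%), against 0.152% in null low-salt rats (0.127% to 0.168%). Csf1r differed by 0.10 ± 0.13, C1qa by 0.11 ± 0.14, Cd68 by 0.09 ± 0.30 and Cd3e by -0.01 ± 0.22. In SS rats 10 of the macrophage markers and 18 of the T and NK cell markers rose, against 9.52% higher among all genes there. By the test of the difference the salt effect was lower in null rats for 4 of the 21 and 5 of the 26, as for 1.76% of all genes. The complement protease Masp1 had 285, 393, 409, 410.4 and 341 normalized counts in null rats on 4.0% NaCl, against 208, 156, 208, 91.0 and 148 on 0.3% NaCl (1.22 ± 0.22, adjusted p = 0.0034), without overlap. C4b, whose reads are uncertain against those of C4a, averaged 637 ± 44.2 on 4.0% NaCl and 1139 ± 145 on 0.3% NaCl (-0.83 ± 0.21), a call lost without any rat other than high-salt rat 3, low-salt rat 1, low-salt rat 2 and low-salt rat 3 (adjusted p up to 0.0666). In SS rats C4b went up (1.39 ± 0.21, adjusted p = 2.01e-04), and the difference of salt effects was -2.22 ± 0.30 (adjusted p = 0.00119). The elastase Mmp12, known from macrophages, fell by 0.80 ± 0.17, and the leukocyte actin binder Lsp1 fell by 0.61 ± 0.09.

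Chaperones were higher in the high-salt null rats, most of all in rats 3 to 5. Of 24 tested heat shock genes 5 rose and 0 fell, and of 23 unfolded protein genes 5 rose and 0 fell, against 3.06% higher among all genes. These counts moved with single rats, to 1 (without high-salt rat 4 or high-salt rat 5) to 9 and 0 (without high-salt rat 4) to 9. With the mitochondrial share as a covariate they were 2 and 1. Hsph1, a large heat shock protein that frees nucleotide from Hsp70, had 5028, 5069, 7344, 7955 and 7787 normalized counts in null rats on 4.0% NaCl, against 4317, 4861, 3252, 2841 and 3313 on 0.3% NaCl (0.83 ± 0.20, adjusted p = 0.0185). High-salt rats 1 and 2 lay just above the highest low-salt rat and rats 3 to 5 well above it, and the call was lost without high-salt rat 4 or high-salt rat 5 (adjusted p up to 0.0554). Dnaja1, an Hsp40 partner, had 10348, 9426, 14144, 15073 and 14968, against 8904, 8927, 6460.2, 7447 and 6838 (0.71 ± 0.17), with the call lost without high-salt rat 4 or high-salt rat 5 (adjusted p up to 0.0547). Bag3, which sends Hsp70 clients to autophagy, had 1596, 1648, 1671, 1629 and 1638, against 1446, 1408, 1149, 1164 and 1289.5 (0.35 ± 0.08, adjusted p = 0.0128). Its high-salt rats lay almost level with each other and above all low-salt rats.

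Chordc1, a partner of Hsp90, averaged 1974 ± 523 on 4.0% NaCl and 1213 ± 195 on 0.3% NaCl (0.67 ± 0.19), a call lost without any rat other than high-salt rat 1, high-salt rat 2 and low-salt rat 2 (adjusted p up to 0.11), and its co-chaperone Ahsa1 differed by 0.36 ± 0.10, lost without any rat other than high-salt rat 1, high-salt rat 2 and low-salt rat 1 (adjusted p up to 0.123). In the endoplasmic reticulum the chaperone Hyou1 had 3658, 3395, 5942, 5663 and 5076, against 3375, 3836, 3393, 2654 and 2833 (0.54 ± 0.15), with high-salt rats 1 and 2 inside the low-salt range and the call lost without any rat other than high-salt rat 1, high-salt rat 2 and low-salt rat 2 (adjusted p up to 0.107). Hsp90b1 (0.50 ± 0.14) lost its call without any rat other than high-salt rat 1, high-salt rat 2 and low-salt rat 2 (adjusted p up to 0.106), Creld2 (0.70 ± 0.20) without any rat other than high-salt rat 1, high-salt rat 2 and low-salt rat 2 (adjusted p up to 0.114), Pdia4 (0.59 ± 0.18) without any rat other than high-salt rat 1 and high-salt rat 2 (adjusted p up to 0.128) and Sel1l (0.32 ± 0.07) without high-salt rat 3 or high-salt rat 4 (adjusted p up to 0.0515). Hspa8 (0.30 ± 0.15, adjusted p = 0.227), Hsp90aa1 (0.55 ± 0.18, adjusted p = 0.0671) and Hspa5 (0.67 ± 0.23, adjusted p = 0.0855) did not pass.

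A heat shock element, GAANNTTC on either strand, stood in 12 of 19 heat shock promoters (63.2%), against 2875 of 33469 promoters (8.59%), and in 4 of the 5 risen genes. The windows of Hsph1 (chr12:10427118-10427417), Dnaja1 (chr5:60638154-60638453) and Bag3 (chr1:192533210-192533509), all on the plus strand of GRCr8 and from RefSeq, are shown 5′ to 3′ with matches in capitals, as the 3 risen chaperones of smallest p. Dnaja1 held 2 matches, 1 on each side of the start site, and the others 1 each.
Hsph1: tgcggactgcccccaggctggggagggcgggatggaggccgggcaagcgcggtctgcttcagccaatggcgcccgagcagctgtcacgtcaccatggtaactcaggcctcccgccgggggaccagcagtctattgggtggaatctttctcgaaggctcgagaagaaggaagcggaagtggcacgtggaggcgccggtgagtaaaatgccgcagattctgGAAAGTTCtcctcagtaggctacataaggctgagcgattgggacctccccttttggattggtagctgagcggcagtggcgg
Dnaja1: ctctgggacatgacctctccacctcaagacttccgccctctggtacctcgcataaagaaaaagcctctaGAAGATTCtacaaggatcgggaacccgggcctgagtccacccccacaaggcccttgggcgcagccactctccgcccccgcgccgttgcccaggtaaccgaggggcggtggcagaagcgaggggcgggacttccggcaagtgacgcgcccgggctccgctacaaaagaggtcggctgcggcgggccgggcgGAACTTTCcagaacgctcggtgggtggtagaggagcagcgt
Bag3: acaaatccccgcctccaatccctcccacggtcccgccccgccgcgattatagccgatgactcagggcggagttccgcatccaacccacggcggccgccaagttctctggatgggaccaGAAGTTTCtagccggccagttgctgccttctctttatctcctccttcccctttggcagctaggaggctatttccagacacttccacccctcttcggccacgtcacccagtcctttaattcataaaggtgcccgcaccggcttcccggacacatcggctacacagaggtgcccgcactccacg

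Some genes of protein synthesis and the respiratory chain fell. Of 71 cytosolic ribosomal genes 10 fell and 0 rose, of 73 mitochondrial ribosomal genes 4 fell, and of 84 nuclear-encoded respiratory chain genes 10 fell, against 2.45% lower among all genes. Mrps16, of the mitochondrial small subunit, averaged 784 ± 37.8 on 4.0% NaCl and 1099 ± 124 on 0.3% NaCl (-0.48 ± 0.09, adjusted p = 0.00361). Mrpl54 of its large subunit fell by 0.43 ± 0.08 and Uqcrq of complex III fell by 0.44 ± 0.10. The counts were unstable. Single null rats moved them to 2 (without low-salt rat 3) to 7 for the cytosolic ribosome, 2 (without any of 6 rats) to 4 for the mitochondrial ribosome and 1 (without any of 4 rats) to 8 for the respiratory chain. In the same order, scaling to the library total gave 1, 0 and 0, and the mitochondrial share as a covariate gave 30, 19 and 46. That share was lower in null high-salt rats, as given above, and its part in these counts was not tested. Reads of ribosomal genes are uncertain because of their many copies. Of the 13 mitochondrially encoded genes 1 fell, Mt-nd3 (-0.88 ± 0.26), a call lost without any rat other than low-salt rat 4 (adjusted p up to 0.11).

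Of 55 tested matrix genes 5 rose and 3 fell, against 3.06% higher and 2.45% lower among all genes. The number of risen genes was 1 (without any of 4 rats) to 8 without single null rats, 12 after scaling to the library total, 13 by DESeq2 and 2 with the mitochondrial share as a covariate. In the last 3 settings 918, 883 and 588 of all 16153 genes rose. Col5a2, a collagen of thin fibrils, averaged 3772 ± 219 on 4.0% NaCl and 2682 ± 129.6 on 0.3% NaCl (0.49 ± 0.11, adjusted p = 0.0128), and Lama1, a basement membrane laminin, 294 ± 43.4 and 453 ± 36.8 (-0.63 ± 0.14, adjusted p = 0.0124). Neither gene's groups overlapped. Col15a1, a collagen at the basement membrane of vessels, passed downward (-0.55 ± 0.16), a call lost without every one of the 10 rats in turn (adjusted p up to 0.107). It went up in SS rats (0.75 ± 0.16, adjusted p = 0.00317), and the difference of salt effects was -1.31 ± 0.23 (adjusted p = 0.00652). Pdgfra, the growth factor receptor of fibroblasts, had 1797, 2304, 2171, 2522 and 2084 normalized counts in null rats on 4.0% NaCl, against 1543, 1346, 1394, 1207 and 1177 on 0.3% NaCl (0.70 ± 0.13, adjusted p = 0.00496). It was the 1 of 15 tested fibroblast genes to rise, against 3.06% higher among all genes. Leaving out single null rats gave 1 to 3 (without high-salt rat 1), scaling to the library total 4 and DESeq2 5. At an unadjusted p below 0.05 by limma 7 were higher, where 3735 of all 16153 genes passed that limit in either direction. Of the same 15, 9 rose in SS rats, against 9.52% of all genes there, and for 1 the salt effect was lower in null rats by the test of the difference. Dcn (0.54 ± 0.16, adjusted p = 0.0513) and Col1a1 (0.11 ± 0.14, adjusted p = 0.68) did not pass.

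Igfbp3, which binds insulin-like growth factors, had 7803, 17158, 17454, 13676 and 14368 normalized counts in null rats on 4.0% NaCl, against 3876, 4668, 5361, 4705 and 3532 on 0.3% NaCl (1.63 ± 0.38, adjusted p = 0.0168). High-salt rat 1 was the lowest of its group and still above every low-salt rat. Frzb, a decoy of Wnt ligands, had 1797, 2076, 2559.9, 2764 and 2013, against 1228, 1059, 1004, 809 and 917 (1.15 ± 0.17, adjusted p = 0.0011). Fam180a (1.75 ± 0.42) passed as well and lost its call without high-salt rat 5 (adjusted p up to 0.0531). Cntfr, the receptor subunit for ciliary neurotrophic factor, had 80.5, 183, 109, 95.0 and 124, against 27.0, 27.1, 40.3, 22.2 and 38.7 (1.87 ± 0.40).

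Of 28 tested endothelial genes 3 rose and 1 fell, against 3.06% higher and 2.45% lower among all genes. The number of risen genes was 1 (without any of 6 rats) to 2 without single null rats. It was 6 after scaling to the library total and by DESeq2, where 918 and 883 of all 16153 genes rose. Flt1, a receptor for VEGF, had 6664, 7330.4, 7308, 6194 and 7541 normalized counts in null rats on 4.0% NaCl, against 4401, 4909.6, 4309, 4936 and 4127 on 0.3% NaCl (0.63 ± 0.13, adjusted p = 0.0108), with a clear gap between the groups. Plat, the tissue plasminogen activator that endothelium releases, averaged 7675 ± 394 on 4.0% NaCl and 5172 ± 450.3 on 0.3% NaCl (0.57 ± 0.11, adjusted p = 0.00428). Vwf went down (-0.40 ± 0.10), a call lost without high-salt rat 5 or low-salt rat 3 (adjusted p up to 0.0598). Plvap (0.72 ± 0.20) lost its call without any rat other than low-salt rat 1 and low-salt rat 2 (adjusted p up to 0.0886) and Ehd3 (0.36 ± 0.10) without any rat other than high-salt rat 3 and low-salt rat 4 (adjusted p up to 0.105). Of 7 tested lymphatic markers 2 rose, against 3.06% higher among all genes. Mmrn1, a secreted protein of lymphatic endothelium, had 171, 242, 226, 255 and 180.1, against 106, 93.4, 105, 58.2 and 71.1 (1.32 ± 0.21, adjusted p = 0.00146), and the homing chemokine Ccl21 averaged 1882 ± 223 and 1093 ± 210.3 (0.80 ± 0.15). The endothelial list took 0.535% of reads outside the mitochondrial genome in null high-salt rats (0.484% to 0.591%), against 0.454% in null low-salt rats (0.401% to 0.514%), which overlapped. Pecam1 did not pass (0.25 ± 0.13, adjusted p = 0.265).

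Contractile genes of smooth muscle did not pass in null rats. Of 22 smooth muscle markers 0 passed limma's adjusted test, with 4 at an unadjusted p below 0.05, 0 by edgeR and 2 by DESeq2. Among all 16153 genes 5.52% passed limma's test, and 3735 had an unadjusted p below 0.05. By edgeR 956 of all genes passed and by DESeq2 1656. A list of 22 genes would hold few calls at these shares. Acta2 averaged 11476 ± 1528 on 4.0% NaCl and 12622 ± 2714 on 0.3% NaCl (-0.12 ± 0.14, adjusted p = 0.661), Myh11 differed by -0.07 ± 0.18 (adjusted p = 0.854) and Tagln by -0.24 ± 0.12 (adjusted p = 0.231). Of 32 tested potassium channel genes 3 rose and 1 fell, and of 22 genes of stretch-related channels 1 rose, against 3.06% higher and 2.45% lower among all genes. Abcc9, the SUR2 subunit of the ATP-sensitive potassium channel of vascular muscle, had 820.1, 1201, 995, 1037 and 1093 normalized counts in null rats on 4.0% NaCl, against 569.6, 487, 533, 305 and 418 on 0.3% NaCl (1.17 ± 0.25, adjusted p = 0.0102), and every high-salt rat exceeded every low-salt rat. Kcnk2, the stretch-sensitive channel TREK-1, had 77.2, 51.1, 65.8, 54.1 and 50.3, against 14.5, 20.6, 8.75, 30.7 and 30.3 (1.58 ± 0.30, adjusted p = 0.00552), again without overlap at this low level.

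Of 51 tested vasoactive receptor genes 5 rose and 2 fell, against 3.06% higher and 2.45% lower among all genes. Leaving out single null rats gave 3 (without high-salt rat 1 or low-salt rat 3) to 7 risen genes. The number was 9 after scaling to the library total and by DESeq2, where 918 and 883 of all 16153 genes rose. The alpha-1B adrenergic receptor Adra1b had 306, 333, 332, 298 and 270.2, against 214, 182, 197, 216 and 237 (0.56 ± 0.10, adjusted p = 0.00422), and Adra2b averaged 2548 ± 313 on 4.0% NaCl and 1733 ± 103 on 0.3% NaCl (0.55 ± 0.11). Ramp3, which turns the calcitonin-like receptor into an adrenomedullin receptor, rose by 0.75 ± 0.15. Hpgd, which degrades prostaglandins, rose by 0.46 ± 0.10. Adra1a (0.62 ± 0.15) lost its call without high-salt rat 1, high-salt rat 5, low-salt rat 3 or low-salt rat 5 (adjusted p up to 0.0611), Ednrb (0.63 ± 0.17) without any rat other than high-salt rat 5, low-salt rat 1, low-salt rat 2 and low-salt rat 5 (adjusted p up to 0.0791) and Adra1d, which fell by 1.00 ± 0.27, without any rat other than high-salt rat 1, high-salt rat 4 and low-salt rat 3 (adjusted p up to 0.0829). The stretch-related cation channel Trpv4 (0.34 ± 0.09) lost its call without any rat other than high-salt rat 1, low-salt rat 1 and low-salt rat 2 (adjusted p up to 0.0893). Kcnma1 (0.45 ± 0.20, adjusted p = 0.174), Trpc6 (0.04 ± 0.23, adjusted p = 0.947) and Agtr1a (0.49 ± 0.15, adjusted p = 0.0557) did not pass.

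Of 16 tested corticosteroid genes 3 rose and 1 fell, and of 10 tested osmolyte genes 2 rose and 1 fell. Among all genes 3.06% were higher and 2.45% lower. Leaving out single null rats gave 1 (without high-salt rat 5) to 4 risen corticosteroid genes. For the osmolyte genes it gave 1 (without high-salt rat 5 or low-salt rat 3) to 2. Hsd11b1, which regenerates active glucocorticoid, averaged 12913 ± 924 on 4.0% NaCl and 9047 ± 1817 on 0.3% NaCl (0.53 ± 0.11, adjusted p = 0.0106), opposite to Hsd11b2. Of the steroid-induced genes, the kinase Sgk1 had 5741, 4264, 5612, 5929.6 and 9499, against 3850.4, 3797, 2468, 2941 and 2931 (0.93 ± 0.22), with the call lost without high-salt rat 5 or low-salt rat 3 (adjusted p up to 0.0644), and Fkbp5 (0.63 ± 0.16) lost it without high-salt rat 1, high-salt rat 3, high-salt rat 5 or low-salt rat 2 (adjusted p up to 0.069). Tsc22d3 (0.69 ± 0.21, adjusted p = 0.0511) and Per1 (1.08 ± 0.37, adjusted p = 0.0809) did not pass. Slc5a3, which imports inositol as an osmolyte, had 289.9, 403, 389.9, 318 and 425, against 263, 259, 180.3, 184 and 179 (0.78 ± 0.16, adjusted p = 0.0103). Akr1b1, which makes sorbitol, went down (-0.43 ± 0.11), a call lost without high-salt rat 1, high-salt rat 2 or low-salt rat 4 (adjusted p up to 0.0651), and Nfat5, the factor that drives both, did not pass (0.17 ± 0.10, adjusted p = 0.303). Of 19 clock genes 0 passed limma's adjusted test, with 8 at an unadjusted p below 0.05, 0 by edgeR and 1 by DESeq2. Among all 16153 genes 5.52% passed limma's test, and 3735 had an unadjusted p below 0.05. Bmal1 differed by 1.15 ± 0.35 (adjusted p = 0.0524).

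**Figure D4:**
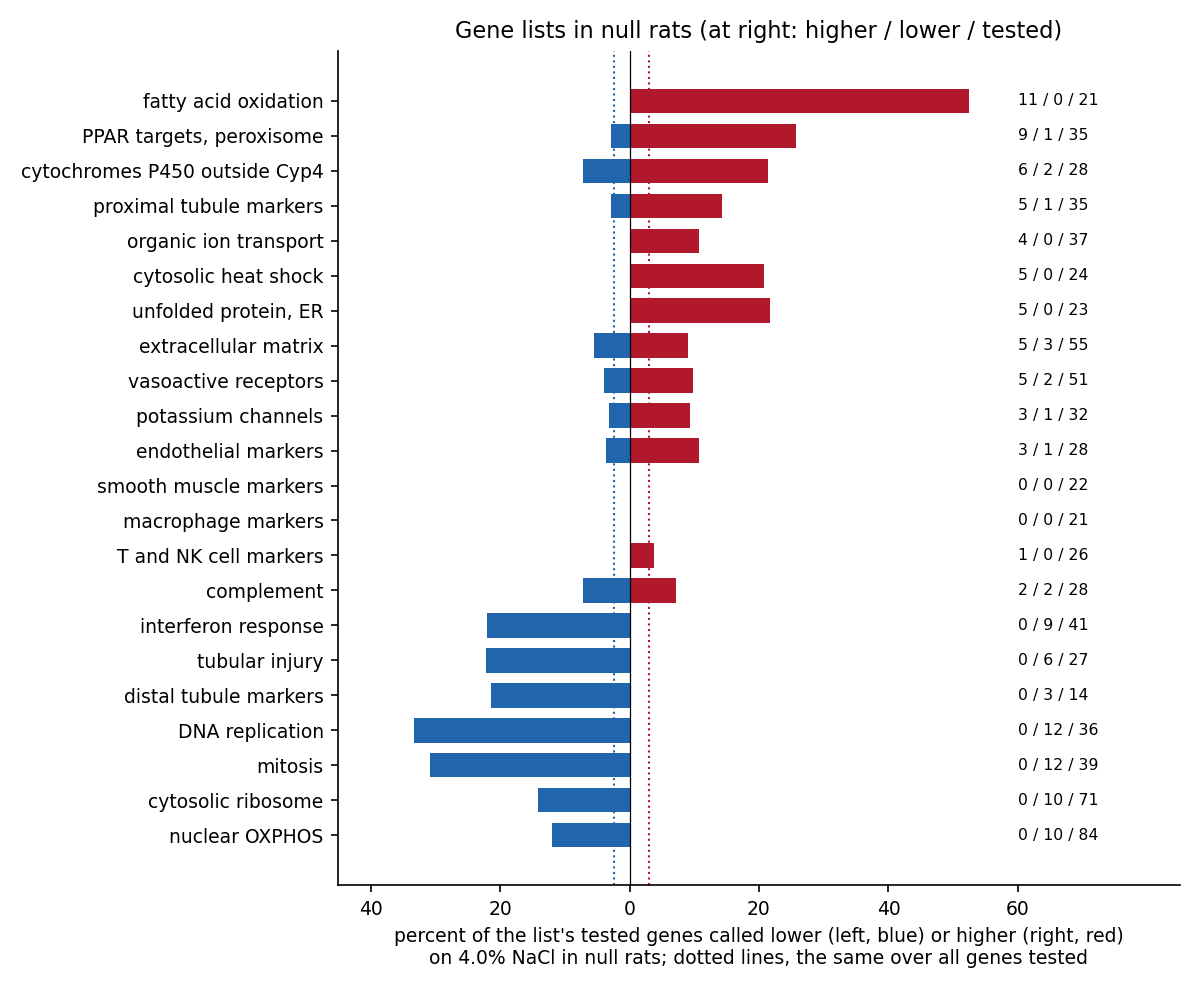
Percent of each gene list's tested members that passed the test in null rats, higher on 4.0% NaCl to the right and lower to the left, with counts of higher, lower and tested genes at the right edge. Dotted lines mark the same shares over all 16153 genes, 3.06% higher and 2.45% lower. Fatty acid oxidation reaches farthest to the right, and replication and mitosis farthest to the left.

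Where a list had 0 genes past limma's test in a direction, other counts bear on it. At an unadjusted p below 0.05 there were 0 lower fatty acid oxidation genes, 0 higher replication genes, 1 higher mitosis gene, 3 higher injury genes, 0 lower heat shock genes, 2 lower unfolded protein genes, 0 higher interferon genes, 0 higher cytosolic ribosomal genes and 1 higher respiratory chain gene. edgeR and DESeq2 also gave 0 in each of these directions, except for 1 higher respiratory chain gene by DESeq2. Scaling to the library total moved the median of all genes by 0.12 on the log2 scale, so directions are relative to the deposited scaling.

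Other large changes fell outside these lists. Atp12a, the non-gastric proton-potassium pump, had 945, 474, 504, 589 and 156 normalized counts in null rats on 4.0% NaCl, against 73.2, 31.8, 91.9, 48.7 and 78.9 on 0.3% NaCl (2.90 ± 0.67, adjusted p = 0.0157). High-salt rat 5 was the lowest of its group and above all low-salt rats. The purine nucleobase carrier Slc43a3 (1.46 ± 0.23), the lipid hydrolase Adtrp (1.46 ± 0.22) and the exchange factor Rasgef1b (1.22 ± 0.17) rose without overlap. Downward, the muscle protein Mybpc2 had 579.8, 426, 556, 655 and 474, against 1606, 1992, 1301, 1953 and 1842 (-1.69 ± 0.22, adjusted p = 4.51e-04). Its high-salt rats lay wholly below the low-salt rats. Car3, a carbonic anhydrase of muscle and fat, had 20.9, 45.6, 37.4, 50.1 and 30.4, against 228, 132, 114, 109 and 189 (-2.04 ± 0.39, adjusted p = 0.00552), which is the steepest fall of a named gene with a mean of at least 50. Nrep (-1.23 ± 0.18) and Pmepa1 (-0.89 ± 0.15), a TGF-beta-induced inhibitor of that pathway, fell without overlap.

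Other genes among the largest or most certain changes were these. The lipase-like Abhd3 (0.93 ± 0.12), the immunoglobulin-domain protein Tmigd1 (0.80 ± 0.12), the imprinted zinc finger gene Peg3 (0.62 ± 0.09) and the membrane protein Mlc1 (1.63 ± 0.38) rose, each without overlap between the diets. The actin nucleation subunit Arpc1b (-0.48 ± 0.07), Npdc1 (-0.43 ± 0.07) and the scaffold Dlgap3 (-1.28 ± 0.27) fell without overlap. The steroid reductase Akr1c14 fell with overlap (-1.33 ± 0.29), as high-salt rat 4 lay above low-salt rats 4 and 5. Slfn4 passed downward (-1.32 ± 0.37), with 1239.6 normalized counts in low-salt rat 4 against 209 to 641 in the other low-salt rats, and its call was lost without any rat other than high-salt rat 1, low-salt rat 1 and low-salt rat 3 (adjusted p up to 0.0951). Among genes chosen for the difference between genotypes, Fgl2 (0.33 ± 0.09) lost its call without any rat other than low-salt rat 1 and low-salt rat 2 (adjusted p up to 0.105), Pdlim4 (-0.55 ± 0.16) without any rat other than low-salt rat 3 (adjusted p up to 0.127) and Fcrl2 (-0.76 ± 0.22) without any rat other than high-salt rat 1 (adjusted p up to 0.119).

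Compared with SS rats, null rats shared part of the salt response. Of the 891 genes, 331 passed in the same direction in SS rats (37.1% of the 891 and 11.9% of the 2787 that passed there), 17 in the opposite direction (1.91% and 0.61%), and 543 did not pass there. Not passing in SS rats does not show a different effect. The test of the difference itself passed for 79 of the 891, against 409 of all 16153 genes (2.53%), with the salt effect more positive in null rats for 31 (0.774% of all genes) and more negative for 48 (1.76%). Car3 had 1052, 699, 337, 191 and 205 normalized counts in SS rats on 4.0% NaCl, against 206, 235, 179, 81.2 and 118 on 0.3% NaCl. It thus passed downward in null rats and upward in SS rats, and the difference of salt effects was -3.41 ± 0.55 (adjusted p = 0.00413). B4galnt4, a glycosyltransferase, fell in null rats (-1.19 ± 0.28) and differed by -2.23 ± 0.39 (adjusted p = 0.00595).

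The salt effect was more positive in null rats for 5 of 35 proximal tubule and 6 of 15 thick limb genes, against 0.774% of all genes. In the thick limb the difference of salt effects was 0.93 for Slc12a1 and 0.63 for Cldn16. Some genes of other kinds passed in this direction as well. Slc9a3 had 1377, 1687, 1434, 1969 and 1779.6 in SS rats on 4.0% NaCl, against 1804, 2583, 1859, 2070.0 and 2508 on 0.3% NaCl (-0.39 ± 0.13, adjusted p = 0.0449), and the difference of salt effects was 1.00 ± 0.19 (adjusted p = 0.00838). It was 0.90 ± 0.19 for Slc22a25 (adjusted p = 0.0161), 0.81 ± 0.17 for Gsta2 (adjusted p = 0.0166), 1.06 ± 0.28 for Slc15a1 (adjusted p = 0.0486) and 0.86 ± 0.23 for Slc5a3 (adjusted p = 0.0486). Calb1 fell in both genotypes, with log2 changes of -1.63 ± 0.14 in null rats and -0.83 ± 0.14 in SS rats, and the difference of -0.81 ± 0.20 passed (adjusted p = 0.0329). Ccl21 rose in both, by 0.80 ± 0.15 in null rats and 1.73 ± 0.15 in SS rats, with a difference of -0.94 ± 0.22 (adjusted p = 0.0235).

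The level of tubule markers, which does not measure tubule content, was lower in SS high-salt rats than in SS low-salt rats. The mean log2 level of the proximal tubule, thick limb and collecting duct lists was 12.18 to 12.34 in null high-salt rats and 11.95 to 12.47 in null low-salt rats, against 11.93 to 12.05 in SS high-salt rats and 12.35 to 12.55 in SS low-salt rats. With that level as a covariate, 0 genes passed limma's test of the difference (smallest adjusted p = 0.0675, with 1483 at an unadjusted p below 0.05), against 409 without it. The level comes from these same data, and 5 proximal tubule, 6 thick limb and 1 collecting duct genes passed that test. It did not overlap between the SS diets, so the fit can hardly separate it from diet in SS rats. The 0 therefore does not show why the salt effects differed. edgeR gave 439 and DESeq2 835 without the covariate. The count for salt in null rats was 1098 with the covariate.

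**Figure D5:**
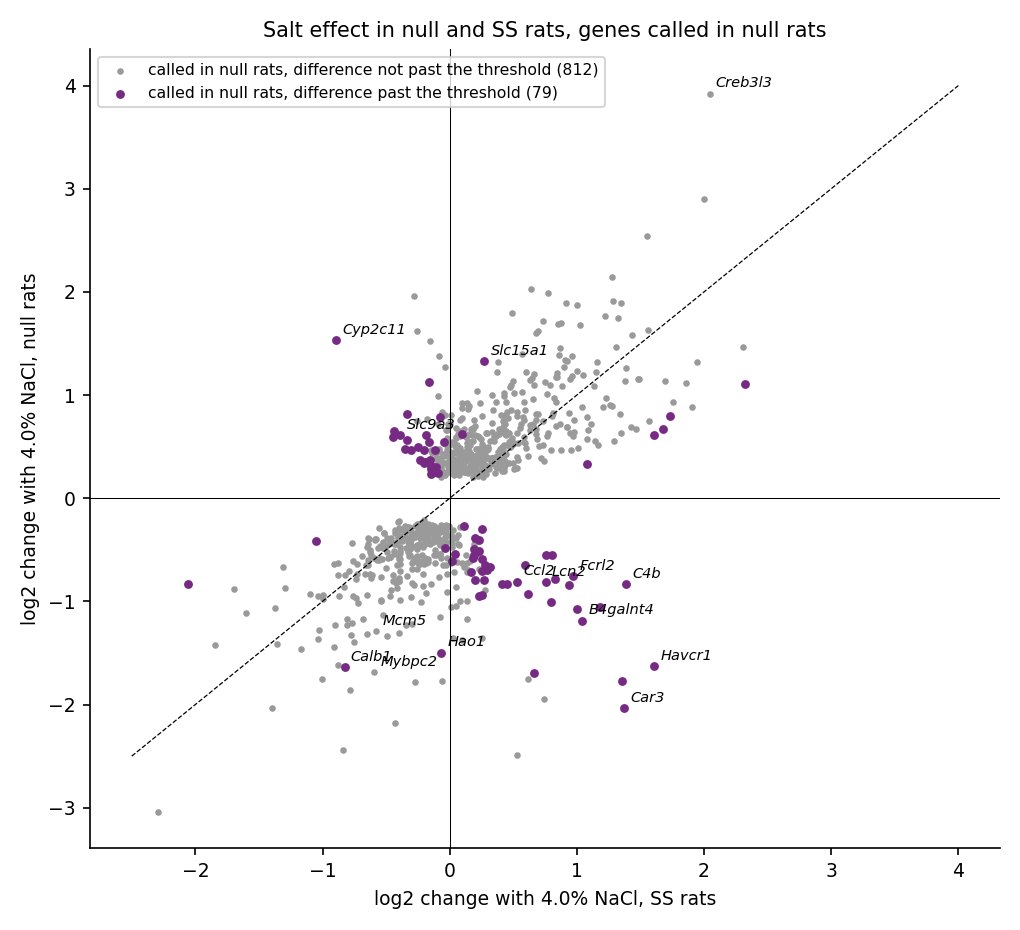
Log2 change with 4.0% NaCl in null rats (y axis) against that in SS rats (x axis) for the 891 genes that passed in null rats, with the line of equal change dashed. Purple points are the 79 genes whose salt effects differed between genotypes by limma's test. Havcr1, Car3 and C4b lie low on the right, and Cyp2c11 and Slc9a3 lie above the dashed line on the left.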

How the data were processed

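RNA of dissected kidney microvessels was extracted with TRIzol, treated with DNase and selected for poly A, per the labels' protocols. Per the submitters' processing notes, the tools were STAR 2.7.11b, featureCounts 2.0.6 (Subread), DESeq2 1.44, Trim Galore and MultiQC, and the build mRatBN7.2. Values are the authors' normalized counts as deposited, a signal in which each library is whole reads divided by 1 factor. Whole reads came back for 100% of values within 1e-06. The least abundant gene listed had 100 reads over all libraries together, and transcripts below that were not assessed. Precision is limited by 5 rats per group.

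Genes were tested with limma 3.58.1 (lmFit, eBayes with a trend, R 4.3.3) on log2(value + 1), in 1 fit of 4 group means over 20 libraries. That scale understates changes of rare transcripts. The Benjamini-Hochberg adjustment ran over 16153 genes, with a threshold of 0.05. Errors after ± are SEs for log2 changes and SDs for levels. edgeR 4.0.16 and DESeq2 1.42.0 on recovered reads, other scalings, filters, pseudocounts and covariates were alternatives.

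The comparison, gene lists and rule for names were chosen with earlier results of these data known. Named were Ccl2 and Ccr2, the 15 highest and 15 lowest changes and the 12 smallest p each way among genes that passed and averaged 50 or more, up to 6 passing and 3 other members per list, and the 8 smallest p of the difference between genotypes. Other genes were named after their values were seen. Some genes the rule picks are not reported here. RGD1562402, a name on more than 1 row, was left out, and for 6 list members with such names the more abundant row was used. Promoters are RefSeq, GRCr8, a build other than that of the counts, and 1174 of 1516 names looked up had one.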

Additional observations from a re-analysis of the deposited data

Results flagged for a closer look

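Among 428 groups of 5 null rats, from 214 genes, 1 rat stood apart from the other 4 by Dixon's criterion of 0.71 in 21. Chance flags about 1 in 20 groups. Values here are normalized counts. Among null high-salt rats the highest value stood apart for Cyp2e1 in rat 1 (12136), Lama1 in rat 3 (371), Kcnj12 in rat 1 (3905), Agtr1a in rat 2 (2023), Mrpl54 in rat 3 (1147) and Nog in rat 5 (94.2). Among null high-salt rats the lowest value stood apart for Cyp2c11 in rat 3 (478), Cubn in rat 5 (6782), Fabp4 in rat 3 (817) and Gbp5 in rat 3 (323). Among null low-salt rats the highest value stood apart for Prodh in rat 3 (922), Pdlim4 in rat 4 (487), Ppara in rat 3 (192), Clu in rat 1 (11532), Psmb8 in rat 4 (2750.2), Col14a1 in rat 4 (193), Akr1b1 in rat 4 (1611), Relb in rat 4 (811) and Ccl22 in rat 4 (49.8). Among null low-salt rats the lowest value stood apart for P2ry2 in rat 3 (776) and Plat in rat 3 (4392).

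For 39 of the 214 genes the difference of salt effects passed limma's test, null minus SS on the log2 scale. It was positive for Cyp2c11 (2.42), Cyp2d5 (1.09), Slc15a1 (1.06), Slc9a3 (1.00), Slc12a1 (0.93), Slc22a25 (0.90), Slc5a3 (0.86), Gsta2 (0.81), Cldn16 (0.63), Adra2b (0.59), Trpv4 (0.54) and Peg3 (0.53). It was most negative for Car3 (-3.41), Havcr1 (-3.24), B4galnt4 (-2.23), C4b (-2.22), Adra1d (-1.80), C4a (-1.78), Fcrl2 (-1.73), Lcn2 (-1.57), Spp1 (-1.52), Hao1 (-1.43), Pdlim4 (-1.36), Ccl2 (-1.34) and Col15a1 (-1.31). Smaller negative differences were those of Sele (-1.25), Cd44 (-1.24), Clu (-1.21), Cdt1 (-1.18), Mmp12 (-1.06), Ccr2 (-1.06), Ccl21 (-0.94), Calb1 (-0.81), Fgl2 (-0.75), Relb (-0.74), Lsp1 (-0.63), Parp14 (-0.58), Psmb9 (-0.58) and Arpc1b (-0.44). With the tubule score as a covariate 0 genes of the whole table passed limma's test of the difference, with 1483 at an unadjusted p below 0.05, and 439 by edgeR and 835 by DESeq2 without the covariate. That score, the mean tubule marker level above, did not overlap between the SS diets, so it can hardly be separated from diet there.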

How the results depend on the processing

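The count of 891 genes changed with salt in null rats became 1656 with DESeq2, 2053 in a fit of the 10 null libraries alone and 2628 with library weights. Leaving out 1 rat gave 419 to 1609, the highest without SS high-salt rat 1 and the lowest without null high-salt rat 5. It was 956 with edgeR, 874 of these among the 891. The share of higher calls was 55.6%, against 89.0% (918 higher and 113 lower) after scaling to the library total and 44.6% (588 higher and 731 lower) when the share of mitochondrial reads was a covariate. The count of 409 genes whose salt effect differed between null and SS rats became 835 with DESeq2, 1082 after scaling to the library total, 173 when the share of mitochondrial reads was a covariate and 0 when the tubule score was, a score that did not overlap between the SS diets. For the difference between genotypes, other fits varied too. The count was 237 without null low-salt rat 4 and SS high-salt rat 1 together, and 221 to 612 when 1 rat was left out. The causes were not tested. No call of a named gene reversed in the alternatives run.

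The rats share numbers across groups, but same-numbered null rats correlated by only -0.159 to 0.054 after removal of the group means, so the numbers were not taken as pairs. With the rat number as a replicate block, 814 genes passed for salt in null rats and 275 for the difference.

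With 5 rats a group, 308 of the 891 calls held in all 10 fits without a null rat, 358 in every other alternative and 225 in all of both.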
